A study of Mus musculus with 6 samples.

Results

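The NF-kB genes described here were 4 subunits (Nfkb1, Nfkb2, Rela and Relb), 5 inhibitors or feedback genes (Nfkbia, Tnfaip3, Tnip1, Bcl3 and Birc3) and 1 effector target (Icam1). These 10 genes were taken by name from the 54146 genes of the deposited expression table, and each name matched 1 row. With rSLURP1, the 2 genes that fell most were Tnfaip3 and Birc3, both to well under the rGST level, whereas Nfkbia, the inhibitor gene with the highest level, was slightly higher. Nfkb2, Rela and Relb were lower by about as much as the median of the tested genes. Nfkb1 did not pass the test, and its direction depended on how the libraries were scaled.

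NF-kB is a family of dimeric transcription factors that inhibitor (IkB) proteins hold in the cytoplasm until a stimulus, such as tumor necrosis factor or interleukin 1, activates the IkB kinase (IKK) complex. IKK marks IkB for destruction, and the freed dimers enter the nucleus and induce inflammatory and survival genes. Several of the induced genes encode brakes on the same pathway, so their transcripts are commonly read as feedback targets. In breast tumor cells the pathway is known for controlling chemokines, adhesion molecules and resistance to cell death.

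The cells were D2A1, a mouse mammary tumor line. They were cultured in 3D Matrigel in DMEM with 10% FBS and treated with 50 nM rGST, the control protein (3 libraries), or 50 nM rSLURP1 (3 libraries). SLURP1 is a secreted protein related to Ly6 and uPAR, and the comparison asked which genes differ between control and SLURP1 treatment. Harvest on day 5 is stated in the methods of the paper. All libraries come from 1 cell line, and the labels do not say whether they are separate cultures, so the p-values measure only the spread between these samples. Expression is in TPM, reads per transcript length scaled to the same total in every library. Because TPM corrects for length, levels of different genes can be compared, but it keeps no read depth, so no counting error is given.

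A shift common to most genes bears on every fold change. In the 12301 tested genes, each at 1 TPM or more in 3 or more libraries, the median log2 fold change was -0.33 with the TPM as deposited and -0.0012 after median-ratio scaling, which sets each library to its typical gene. Called genes were lower in 87.1% of cases as deposited and in 49.2% after that scaling. Each member is therefore also given relative to the median of all tested genes. Of 9 markers listed for a mammary tumor cell of epithelial origin, 6 were under a TPM of 1 in all libraries. Epcam and Cdh1 were among these 6, while Krt18 and Vim were above a TPM of 1 in all. The 9 markers summed to 1385 to 1539 TPM with rGST and 841 to 897 TPM with rSLURP1. Mean TPM fell from 1258.9 to 664.5 for Vim and from 1.56 to 0.70 for Krt8 with rSLURP1. For Krt18 it was 195.6 with rGST and 197.7 with rSLURP1. The summed TPM of 6 fibroblast markers was 1007 to 1138 with rGST and 75.2 to 85.1 with rSLURP1. Of 8 macrophage and leukocyte markers, only Cd68 and Cd14 were above a TPM of 1, with Ptprc at 0.01 or less and Adgre1, Itgam and Tyrobp listed at 0 in all libraries. Their sum was 17.4 to 20.5 with rGST and 48.3 to 55.8 with rSLURP1. The sums of 4 T and NK cell markers and 3 endothelial markers stayed at 0 and at 0.31 or less. The part of these marker shifts in the results was not tested, and in bulk samples fewer cells of a type and less RNA per cell cannot be told apart.

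Of the 10 genes, 9 were tested and Icam1 fell under the expression filter. In limma on log2(TPM + 1), with Benjamini-Hochberg adjustment over all tested genes, 6 of the 9 were lower with rSLURP1 with adjusted p at or under 0.05, where 58.5% of all tested genes were lower, and 1 was higher, where 8.66% were higher. The groups did not overlap for the same 6 lower genes, where 61.7% of all genes were lower without overlap, and for the 1 higher gene, where 9.75% were higher without overlap. The count of lower members was thus near the background. At a fold change of at least 2, 2 of the 9 were lower, beside 7.06% of all genes. After median-ratio scaling, 3 members were higher, beside 26% of all genes, and 3 were lower, beside 25.2%. The median log2 fold change of the 9 genes was -0.39, or -0.065 relative to all genes.

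**Figure D1:**
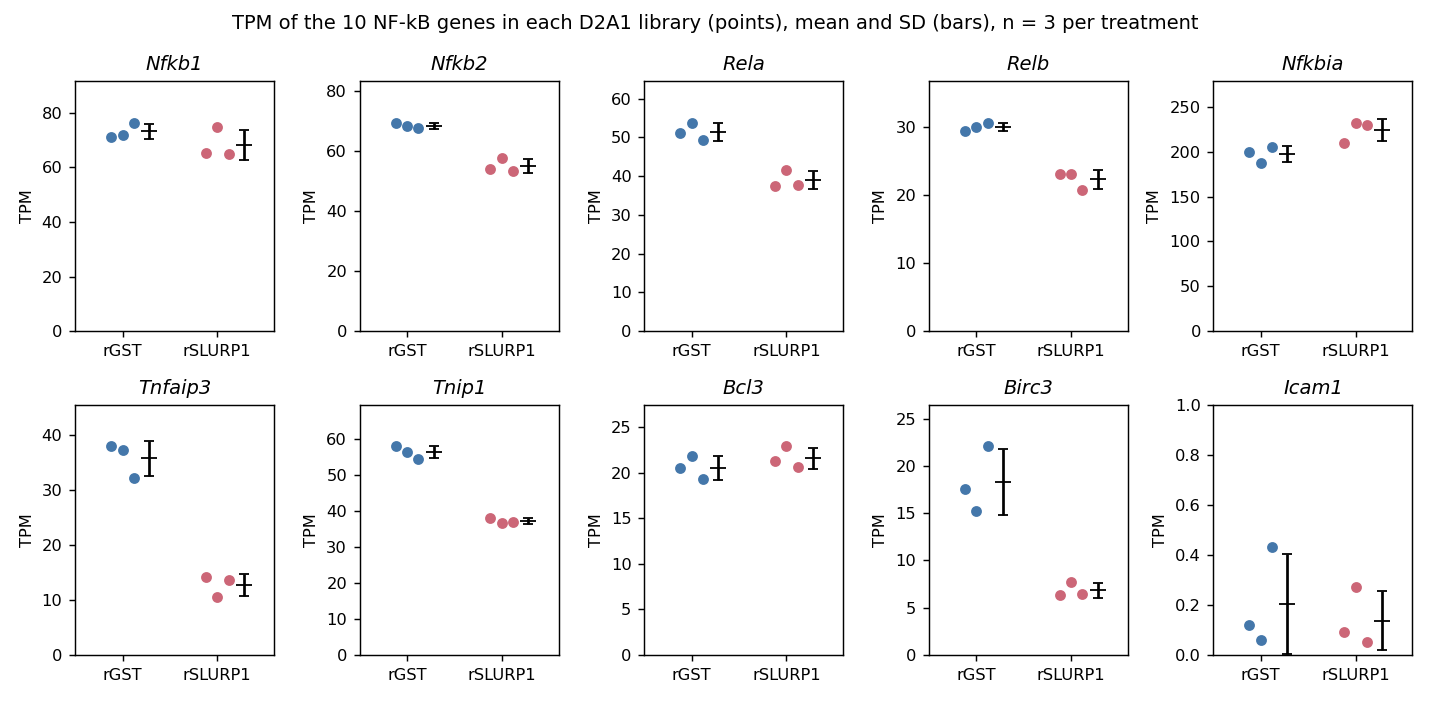
TPM of each of the 10 genes (vertical axis, from 0) in the 3 rGST (blue) and 3 rSLURP1 (red) libraries, with the mean and SD as bars. Tnfaip3 and Birc3 have the largest fold differences between the treatments among the tested genes, Nfkb1 and Bcl3 overlap, and every Icam1 value is 0.43 TPM or less.

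The promoters of the members were searched for the kB consensus, the 10-letter element that NF-kB dimers bind, because feedback genes of the pathway are commonly induced through it. RefSeq (GRCm38.p6) held promoter entries for 8 members, and Nfkb1 and Relb had none in the table. In the 250 bases upstream of a start, on either strand and counting overlapping matches, the consensus was found for 4 of the 8 (Nfkb2, Nfkbia, Tnfaip3 and Tnip1), and it was found for 4.46% of the 27025 genes in the table. No match of these letters was found for Rela, Bcl3, Birc3 or Icam1. The first line is the upstream sequence of Nfkbia, the member that was higher under both scalings, at chr12:55492648-55492897 on the minus strand. The other lines are 30-base windows of Tnfaip3 (chr10:19015411-19015440 and chr10:19015516-19015545, minus strand), Tnip1 (chr11:54962978-54963007, minus strand) and Nfkb2 (chr19:46304689-46304718, plus strand), which were lower as deposited. All are written 5′ to 3′, with the matched letters in capitals.
Nfkbia: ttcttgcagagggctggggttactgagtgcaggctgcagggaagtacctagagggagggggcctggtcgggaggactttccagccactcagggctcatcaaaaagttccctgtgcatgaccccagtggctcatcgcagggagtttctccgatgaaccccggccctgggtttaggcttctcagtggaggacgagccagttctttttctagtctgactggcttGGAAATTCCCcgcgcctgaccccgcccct
Tnfaip3, near the start: gtgactggaatttccatcGGAAATCCCCct
Tnfaip3, farther upstream: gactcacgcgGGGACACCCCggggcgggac
Tnip1: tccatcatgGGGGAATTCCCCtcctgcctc
Nfkb2: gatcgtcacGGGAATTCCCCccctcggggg

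The matched element of Nfkbia lies 20 to 29 bases upstream of its start, that of Tnip1 47 to 58 bases, and those of Tnfaip3 3 to 12 and 116 to 125 bases upstream of 1 of its 2 starts in the table, the other having no match. Nfkb2 has 3 annotated starts in the table, each with at least 1 match. Of the 4 genes with a match, Nfkbia was higher and Tnfaip3, Tnip1 and Nfkb2 were lower with rSLURP1 as deposited. Among all tested genes, 58.5% were called lower and 8.66% higher as deposited, and Nfkb2 was at 0.016 relative to all genes. These matches thus did not go with 1 direction. A match in this window is a description of letters and not of binding.

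Of the subunits, Nfkb1 (ENSMUSG00000028163.17; GRCm38 chromosome 3, 135584655 to 135691547, minus strand) encodes the precursor p105, from which the DNA-binding p50 is made. Its TPM was 71.3, 71.8 and 76.4 with rGST and 65.3, 74.7 and 64.8 with rSLURP1. The groups overlapped because rSLURP1 replicate 2 lay inside the rGST range, and the log2 fold change of Nfkb1 was -0.10 (standard error 0.065, adjusted p = 0.204 in limma) and 0.22 relative to all genes. With median-ratio scaling Nfkb1 was higher in every rSLURP1 library (log2 fold change 0.25, adjusted p = 0.00673 in limma), and without rSLURP1 replicate 2 it was lower as deposited (-0.17, adjusted p = 0.0252 in limma).

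Nfkb2 (ENSMUSG00000025225.14; chromosome 19, 46304320 to 46312385, plus strand) encodes p100, the precursor of p52 in the noncanonical branch. It stood at 69.4, 68.1 and 67.5 TPM with rGST and at 53.9, 57.5 and 53.4 TPM with rSLURP1. The log2 fold change of Nfkb2 was -0.31 (standard error 0.046, adjusted p = 7.29e-04 in limma). Relative to all genes it was 0.016, so Nfkb2 moved with the median gene, and after median-ratio scaling it was at 0.039 (adjusted p = 0.418 in limma). On the opposite strand, the protein-coding gene Psd overlaps Nfkb2 by 299 bases and had 2.48 to 5.2 TPM. The noncoding gene AC114539.1 overlaps Nfkb2 by 1292 bases on that strand and had no TPM value. Whether the reads were counted by strand is not given in the sources used here.

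Rela (ENSMUSG00000024927.7; chromosome 19, 5637483 to 5648130, plus strand) encodes p65, the main activating subunit of the canonical branch. Its TPM was 51.2, 53.8 and 49.2 with rGST and 37.6, 41.5 and 37.8 with rSLURP1. Every rSLURP1 library was below every rGST library, and the log2 fold change of Rela was -0.39 (standard error 0.060, adjusted p = 8.09e-04 in limma) and -0.065 relative to all genes. Relb (ENSMUSG00000002983.17; chromosome 7, 19606217 to 19629438, minus strand), the partner of p52, had 29.49, 29.96 and 30.65 TPM with rGST and 23.2, 23.1 and 20.8 TPM with rSLURP1. By limma, Relb changed by -0.41 ± 0.062 on the log2 scale (standard error; adjusted p = 7.58e-04), which is -0.087 after subtracting the median of all genes. With median-ratio scaling the log2 fold changes were -0.044 for Rela and -0.071 for Relb (adjusted p = 0.500 and 0.338 in limma), so the lower level of both was not called under that scaling.

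The 4 subunit transcripts summed to 222.9 ± 1.35 TPM with rGST and 184.5 ± 10.8 TPM with rSLURP1 (SD, n = 3 each). Nfkb1 made up 32.8% ± 1.14 of that sum in rGST and 37.0% ± 0.879 in rSLURP1 libraries (SD, n = 3 each), and the groups did not overlap (exact permutation test, two-sided p = 0.1). The share of Rela was 23.1% ± 1.02 and 21.1% ± 0.252, and that of Relb 13.5% ± 0.201 and 12.1% ± 0.663 (SD, n = 3 each), again without overlap. Nfkb2 held 30.7% ± 0.614 and 29.8% ± 0.518 of the sum, and its groups overlapped. With 3 libraries against 3, 0.1 is the smallest two-sided p-value that an exact permutation test can give.

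Among the inhibitors, Nfkbia (ENSMUSG00000021025.8; chromosome 12, 55489410 to 55492647, minus strand) encodes IkBa, the inhibitor that is degraded and then resynthesized when the pathway is on. It was the highest of the 10 genes in both treatments, with 200.2, 187.3 and 205.0 TPM for rGST and 209.7, 232.3 and 229.7 TPM for rSLURP1. Every rSLURP1 library lay above every rGST library, though the nearest values were 205.0 and 209.7 TPM. The log2 fold change of Nfkbia was 0.18 (standard error 0.054, adjusted p = 0.0200 in limma) and 0.51 relative to all genes. This call was lost without rGST replicate 2, rSLURP1 replicate 2 or rSLURP1 replicate 3 (log2 fold change 0.14, 0.15 and 0.16, adjusted p = 0.0686, 0.0619 and 0.0638 in limma), and also with no filter (adjusted p = 0.0503 in limma) and without the eBayes trend (0.0518). Nfkbia had a positive log2 fold change in all 17 alternative fits and was called in 12 of them, and median-ratio scaling put it at 0.53 (adjusted p = 1.07e-04 in limma).

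Tnfaip3 (ENSMUSG00000019850.11; chromosome 10, 19000910 to 19015657, minus strand) encodes A20, a ubiquitin-editing enzyme that shuts off signaling upstream of IKK. Its TPM was 37.9, 37.3 and 32.1 with rGST and 14.1, 10.5 and 13.6 with rSLURP1. The rGST mean was 2.81 times the rSLURP1 mean, and no libraries of the treatments overlapped. The log2 fold change of Tnfaip3 was -1.43 (standard error 0.119, adjusted p = 4.10e-05 in limma) and -1.10 relative to all genes. It was past the threshold in all 17 alternative fits, with values from -1.50 to -0.99.

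Tnip1 (ENSMUSG00000020400.17; chromosome 11, 54910785 to 54962917, minus strand) encodes ABIN-1, which binds A20 and ubiquitin chains. It stood at 58.0, 56.5 and 54.6 TPM with rGST and at 38.2, 36.6 and 37.1 TPM with rSLURP1, with no overlap. The log2 fold change of Tnip1 was -0.58 (standard error 0.047, adjusted p = 3.54e-05 in limma) and -0.26 relative to all genes, and it was lower past the threshold in all 17 alternative fits, from -0.61 to -0.20.

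Birc3 (ENSMUSG00000032000.17; chromosome 9, 7848699 to 7873186, minus strand) encodes cIAP2, a ubiquitin ligase of the tumor necrosis factor receptor complex and an inhibitor of cell death. Its TPM was 17.6, 15.3 and 22.1 with rGST and 6.32, 7.72 and 6.48 with rSLURP1. All rGST libraries lay above the rSLURP1 libraries, and the rGST mean was 2.68 times the rSLURP1 mean. The log2 fold change of Birc3 was -1.29 (standard error 0.139, adjusted p = 1.39e-04 in limma) and -0.96 relative to all genes, and it was past the threshold in all 17 alternative fits, from -1.41 to -0.89.

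Bcl3 (ENSMUSG00000053175.17; chromosome 7, 19808462 to 19822770, minus strand) encodes an atypical IkB protein that acts in the nucleus with p50 and p52 dimers. It had 20.5, 21.8 and 19.3 TPM with rGST and 21.2, 22.9 and 20.6 TPM with rSLURP1. The groups overlapped, and the log2 fold change of Bcl3 was 0.071 (standard error 0.071, adjusted p = 0.400 in limma) and 0.40 relative to all genes. With median-ratio scaling Bcl3 was higher in every rSLURP1 library (log2 fold change 0.41, adjusted p = 0.00151 in limma). An annotated antisense gene, Gm16174, overlaps Bcl3 by 2073 bases and had 0.15 to 2.34 TPM, and whether the reads were counted by strand is not given in the sources used here.

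Icam1 (ENSMUSG00000037405.8; chromosome 9, 21015985 to 21028817, plus strand), which encodes an adhesion molecule on other cells to which leukocytes bind, was barely detected. Its TPM was 0.12, 0.06 and 0.43 with rGST and 0.09, 0.27 and 0.05 with rSLURP1, with overlapping groups (exact permutation test, two-sided p = 0.6). A difference was not detectable at these levels. Vcam1, another adhesion target of NF-kB, named here after its values were seen, fell from 120.7 ± 12.7 TPM to 40.0 ± 4.91 (SD, n = 3 each; log2 fold change -1.57, adjusted p = 1.37e-05 in limma).

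**Figure D2:**
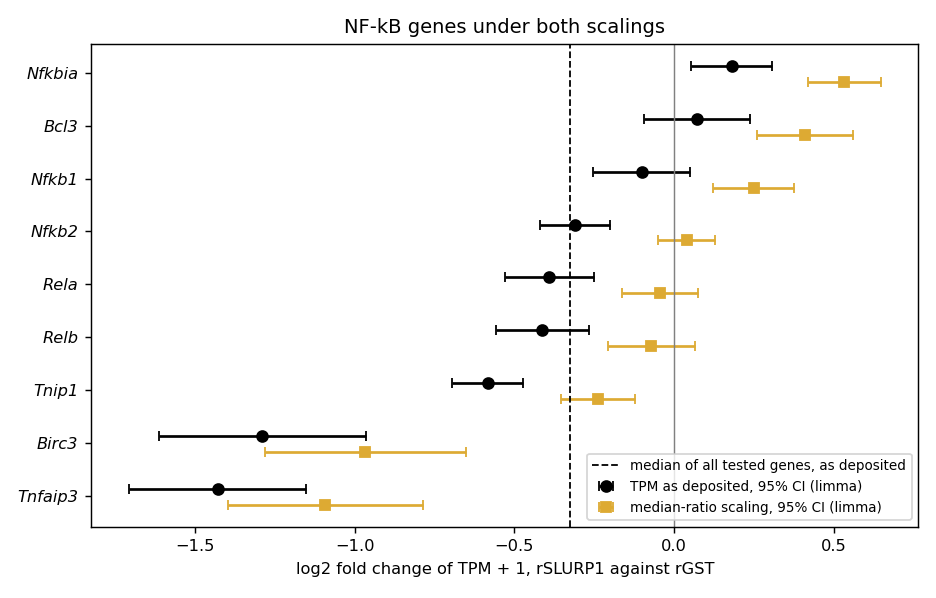
Log2 fold change of TPM + 1, rSLURP1 against rGST (horizontal axis), of the 9 tested genes as deposited (black circles) and after median-ratio scaling (yellow squares), with 95% confidence intervals from limma and the median of all tested genes as deposited (dashed, -0.33). Tnfaip3, Birc3 and Tnip1 lie below 0 and Nfkbia above 0 under both scalings, whereas Nfkb1 and Nfkb2 change sign.

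The order of levels differed slightly between treatments. With rGST it was Nfkbia, Nfkb1, Nfkb2, Tnip1, Rela, Tnfaip3, Relb, Bcl3, Birc3 and Icam1, and Bcl3 and Birc3 were the only neighbours whose libraries overlapped. With rSLURP1, Tnfaip3 stood below Relb and Bcl3, and the neighbours Rela and Tnip1 overlapped, as did Relb and Bcl3. Among all tested genes, Tnfaip3 stood at the 63.6th percentile of mean TPM with rGST and at the 41.2nd with rSLURP1, Birc3 at the 43rd and 27.6th, and Nfkbia at the 94.4th and 95.8th.

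The longest annotated transcript had 6199 bases for Tnfaip3, 4149 for Nfkb1, 3846 for Nfkb2, 3273 for Relb, 2973 for Tnip1, 2909 for Birc3, 2716 for Rela, 1850 for Bcl3 and 1578 for Nfkbia. Among these genes, the one with the longest transcript fell most, and the 2 with the shortest transcripts had the highest log2 fold changes. Among the members in between, Nfkb1 has a longer transcript than Birc3, and their log2 fold changes were -0.10 and -1.29. Whether length caused any of these differences was not tested. Across 12293 tested genes, which are not independent replicates, log2 fold change and this length had a Spearman correlation of -0.25. When length and GC content were regressed out, an alternative chosen after the data were seen, the log2 fold change was -0.99 for Tnfaip3 (adjusted p = 6.08e-04 in limma), -0.93 for Birc3 (0.00121), -0.20 for Tnip1 (0.0178) and 0.45 for Nfkbia (1.94e-04).

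Ratios of genes within a library do not change when the whole library is multiplied by 1 factor, as in median-ratio scaling. Quantile normalization and the adjustment for length and GC content can change them, and the ratios were not computed under these. The ratio of Nfkbia to Rela TPM was 3.91, 3.48 and 4.17 with rGST and 5.58, 5.59 and 6.07 with rSLURP1, a log2 difference of 0.58 (standard error 0.086). The ratio of Tnfaip3 to Rela was 0.740, 0.693 and 0.651 with rGST and 0.376, 0.252 and 0.359 with rSLURP1, a log2 difference of -1.10 (standard error 0.190). Measured against Rela, the inhibitor IkBa thus had more transcript and A20 had less in every rSLURP1 library. The ratio of Tnip1 to its partner Tnfaip3 was 1.59 ± 0.104 in the rGST and 2.98 ± 0.451 in the rSLURP1 libraries (SD, n = 3 each), higher in every rSLURP1 library.

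Within the subunits, the ratio of Nfkb1 to Rela was 1.43 ± 0.112 with rGST and 1.75 ± 0.0442 with rSLURP1, and the ratio of Nfkb2 to Nfkb1 was 0.935 ± 0.0463 and 0.806 ± 0.0318 (SD, n = 3 each). The groups did not overlap in either. The ratio of Relb to Rela was 0.585 ± 0.0337 and 0.574 ± 0.0373 (SD, n = 3 each), and its groups overlapped, with a log2 difference of -0.030 (standard error 0.071). The ratio of Bcl3 to Nfkb1 was 0.281 ± 0.0261 and 0.317 ± 0.00982 (SD, n = 3 each), without overlap, although the nearest libraries stood at 0.304 and 0.306. The ratio of Birc3 to Birc2, a related gene that encodes cIAP1, was 0.484 ± 0.111 in the rGST and 0.324 ± 0.0492 in the rSLURP1 libraries (SD, n = 3 each), without overlap. The ratio of Icam1 to Rela was 0.00407 ± 0.00409 and 0.00341 ± 0.00273 (SD, n = 3 each), with overlap. Over these 9 ratios, each one without overlap had an exact permutation p of 0.1 (two-sided, Benjamini-Hochberg adjusted 0.129), the smallest the design allows, so none could pass 0.05.

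**Figure D3:**
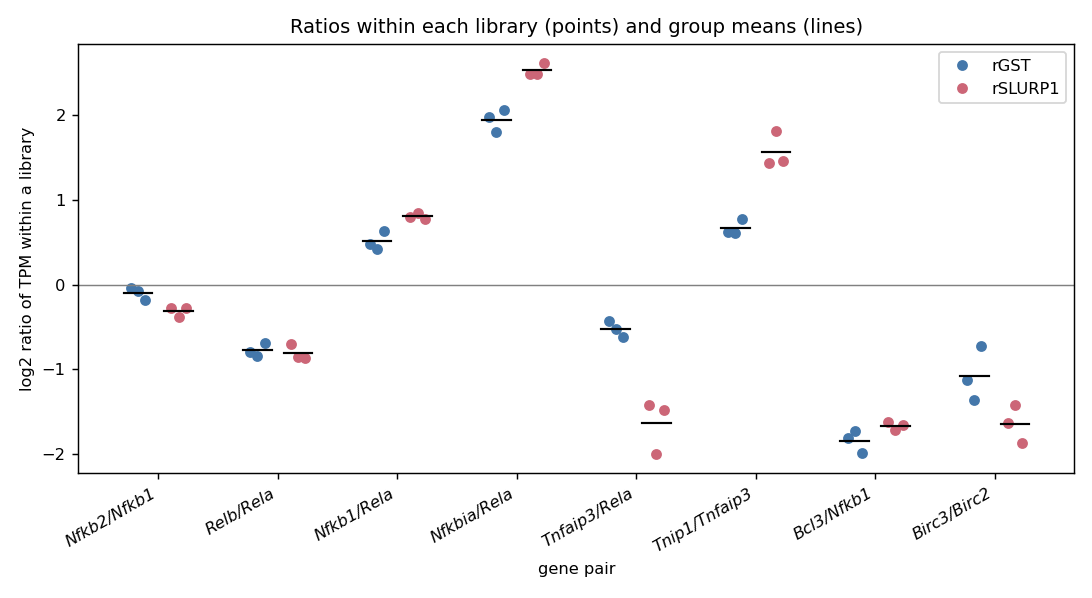
Log2 ratio of TPM within a library (vertical axis) for 8 gene pairs (horizontal axis), with 1 point per library and lines at the means of rGST (blue) and rSLURP1 (red). Nfkbia/Rela and Tnip1/Tnfaip3 are higher and Tnfaip3/Rela is lower in every rSLURP1 library, whereas Relb/Rela overlaps.

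The rest of the pathway was described from 8 lists by role, with 111 genes in all, of which 95 were tested. As deposited, limma called 22 of these higher and 62 lower, and the numbers after median-ratio scaling were 32 and 27. The shares over all tested genes, against which this and each list's count are to be read, were 8.66% higher and 58.5% lower as deposited, and 26% and 25.2% after scaling. Their median log2 fold change was -0.35, or -0.027 relative to all genes.

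Of 10 tested receptors, 2 were higher, 5 lower and 3 did not pass the test, and with median-ratio scaling 6 were higher and 4 lower. Tnfrsf1a, the main receptor for tumor necrosis factor, rose from 79.4 ± 1.37 to 89.5 ± 5.25 TPM, and Tnfrsf12a, the TWEAK receptor, from 179.2 ± 19.9 to 227.4 ± 27.6 TPM (SD, n = 3 each). Tnfrsf9, the costimulatory receptor 4-1BB, fell from 8.49 ± 0.472 to 0.850 ± 0.305 TPM, and Tlr3, a sensor of double-stranded RNA, from 8.08 ± 1.21 to 2.66 ± 0.107 TPM (SD, n = 3 each). Their log2 fold changes were 0.17, 0.34, -2.37 and -1.30 (adjusted p = 0.0218, 0.0196, 9.88e-06 and 7.36e-05 in limma). Both higher calls were lost without rGST replicate 2 or rSLURP1 replicate 2, and 1 of them without rGST replicate 1, without rSLURP1 replicate 3 or with no filter.

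Between receptor and IKK, 10 of 12 adaptors and kinases were lower and 1 was higher, with a median of -0.33. Ticam1, the adaptor of Toll-like receptors 3 and 4, had a log2 fold change of 0.41, and Birc2 and Irak4, the interleukin 1 receptor kinase, had -0.81 and -0.55 (adjusted p = 0.00532, 7.27e-05 and 0.00195 in limma). Of 11 IKK and upstream kinases, 9 were lower and 1 was higher. The higher gene was Ikbkg, which encodes the IKK scaffold NEMO and was named after its values were seen (log2 fold change 0.25, adjusted p = 0.0462 in limma, groups overlapping), and its call was lost without rGST replicate 2, rSLURP1 replicate 1 or rSLURP1 replicate 2, and also with no filter, without the eBayes trend and with the replicate block. Ikbke and Tbk1, the IKK-related kinases, fell by 0.89 and 0.72 on the log2 scale (adjusted p = 2.04e-05 and 1.90e-04 in limma). Of 13 ubiquitin chain enzymes, 12 were lower and 1 did not pass the test, beside 58.5% lower among all genes. Rnf31, the catalytic subunit of the linear ubiquitin ligase complex, fell by 0.98 and Cyld, a deubiquitinase that restrains the pathway, by 0.74 on the log2 scale (adjusted p = 1.08e-05 and 4.87e-05 in limma). The lower counts of these lists were 1, 3 and 4 with median-ratio scaling.

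Of 8 other Rel and IkB genes, 6 were lower and 1 was higher, and with median-ratio scaling 3 were lower and 2 higher. Nfkbib, which encodes IkBb, rose from 21.3 ± 2.77 to 25.6 ± 1.56 TPM (log2 fold change 0.26, adjusted p = 0.0499 in limma), a call that was lost without any 1 library other than rGST replicate 1, and also with a pseudocount of 0.1, with no filter and without the eBayes trend. Nfkbie, which encodes IkBe, fell from 8.48 ± 1.15 to 3.12 ± 0.833 TPM (log2 fold change -1.21, adjusted p = 4.53e-04 in limma; SD, n = 3 each). Tnip2, a relative of Tnip1, had a log2 fold change of -0.87 (adjusted p = 3.34e-04 in limma).

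The target genes moved in both directions. Of 15 tested cytokines and chemokines, 7 were higher and 7 lower (7 and 5 after median-ratio scaling), with a median log2 fold change of 0.081. Il1a, which encodes the alarmin interleukin 1 alpha, rose from 1.22 ± 0.252 to 13.3 ± 3.59 TPM, and Csf3, which encodes the granulocyte growth factor G-CSF, from 5.99 ± 0.959 to 38.2 ± 7.96 TPM (SD, n = 3 each; log2 fold change 2.67 and 2.48, adjusted p = 2.10e-05 and 1.38e-05 in limma). Ccl7, a monocyte chemokine, fell from 6.47 ± 2.17 to 1.13 ± 0.280 TPM, and Cx3cl1 (fractalkine) from 95.4 ± 3.06 to 31.1 ± 1.80 TPM (SD, n = 3 each; log2 fold change -1.77 and -1.59, adjusted p = 4.08e-04 and 9.04e-07 in limma). The TPM of Tnf, the cytokine that classically activates the canonical branch, was 0.02 in rSLURP1 replicate 1 and 0 in the other libraries.

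Of 10 tested survival and stress genes, 5 were higher and 3 lower (6 and 1 after median-ratio scaling). Sod2, the mitochondrial superoxide dismutase, rose from 47.7 ± 2.74 to 110.1 ± 6.24 TPM, and Nqo1, a quinone reductase, from 10.97 ± 0.182 to 22.4 ± 1.35 TPM (SD, n = 3 each; log2 fold change 1.19 and 0.97, adjusted p = 4.61e-06 and 1.96e-05 in limma). Gadd45b, a stress-response gene, and Cflar, which encodes the caspase-8 inhibitor FLIP, had log2 fold changes of -0.76 and -0.45 (adjusted p = 5.08e-04 and 4.13e-04 in limma), and with median-ratio scaling Cflar was at -0.11 (adjusted p = 0.193 in limma).

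Of 16 tested surface and secreted targets, 5 were higher and 10 lower, and with median-ratio scaling 5 were higher and 6 lower. Mmp13, a collagenase, rose from 13.3 ± 1.51 to 38.6 ± 7.57 TPM (SD, n = 3 each; log2 fold change 1.46, adjusted p = 1.07e-04 in limma). Tap1, a peptide transporter of antigen presentation, fell from 12.99 ± 1.46 to 1.63 ± 0.472 TPM, and Irf1, an interferon-response factor, from 114.7 ± 5.96 to 33.0 ± 1.54 TPM (SD, n = 3 each; log2 fold change -2.42 and -1.76, adjusted p = 1.35e-05 and 5.89e-07 in limma). Except for Cflar and Irak4 (-0.22, adjusted p = 0.108 in limma), each gene named here from the lists, Ikbkg included, kept its direction and its call with median-ratio scaling.

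**Figure D4:**
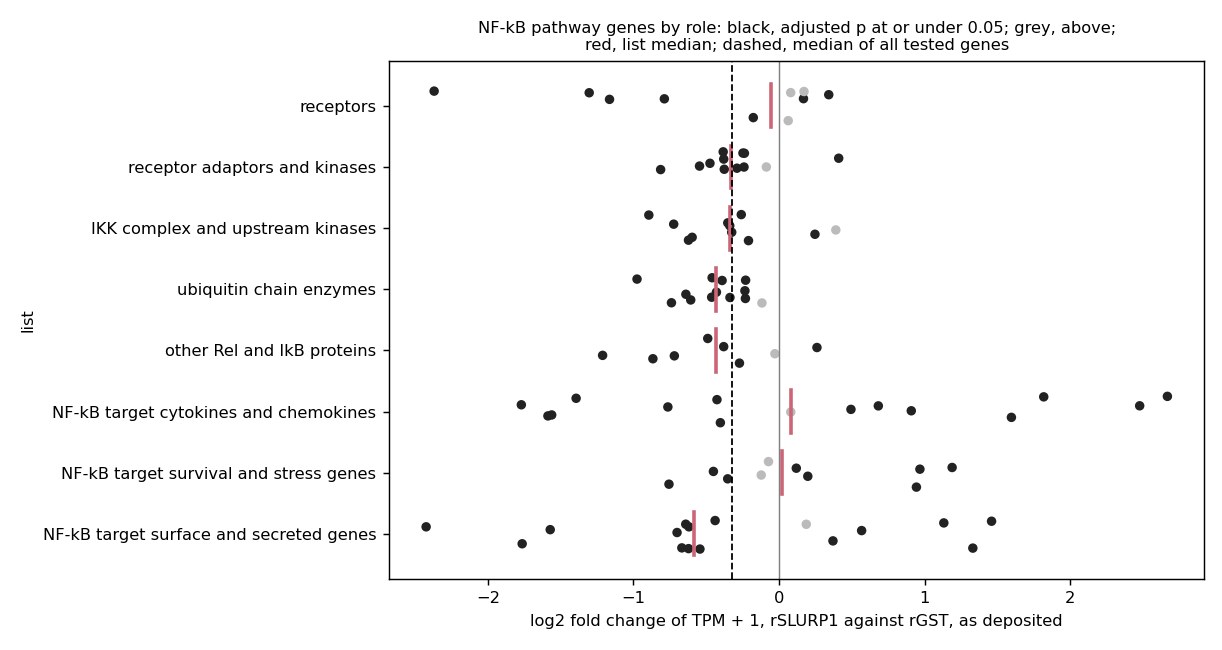
Log2 fold change of TPM + 1 as deposited (horizontal axis) for the tested pathway genes in 8 lists by role (vertical axis, points spread for display), black at an adjusted p of 0.05 or less in limma and grey above it. List medians are red and the median of all tested genes (-0.33) is dashed: the medians of the adaptor and IKK lists lie close to it, the receptor median lies above it at -0.057, and the cytokine list reaches from -1.77 to 2.67.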

How the data were processed

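RNAseq of 6 D2A1 libraries, 3 treated with rGST and 3 with rSLURP1, was grouped by the sample labels. The deposited TPM, 1 column for each library, came from the authors' RSEM estimates (GENCODE M12) after Cutadapt trimming and STAR alignment to mm10. The submitters' processing notes give Cutadapt 1.18 and RSEM 1.3.3. The paper's methods name Smart-seq2 and the labels a TruSeq mRNA kit. TPM holds no depth, which is therefore unknown.

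The 12301 genes at 1 TPM or more in 3 or more libraries were tested on log2(TPM + 1) with limma 3.58.1 in R 4.3.3 (lmFit, eBayes with trend), with Benjamini-Hochberg adjustment, a threshold of 0.05 and a fold change of 2. On this scale the change of low genes is understated. Single values were compared by exact permutation tests over libraries, and ratios took the TPM without a pseudocount. Positions and transcripts came from GENCODE M21 (GRCm38, as mm10); 54079 of 54146 identifiers matched without version. The scripts were tested on simulated data. Python 3.11.15 with pandas 2.3.3 and matplotlib 3.10.9 drew the figures.

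Same-numbered libraries had deviations with correlations of -0.056, -0.034 and -0.061, so the numbers were not taken as pairs. The members and lists were chosen with earlier results of these data known. From each list, up to 2 higher and 2 lower genes with the largest change were named, among those past the threshold without overlap between groups. 1 gene that this rule gives is not reported here. Alternatives were a pseudocount of 0.1, other filters, quantile and median-ratio scaling, TPM rescaled without mitochondrial genes, no eBayes trend, a replicate block, and each library left out in turn. The correction for length and GC content (loess, span 0.3) and a pseudocount of 1 in ratios were added after the data were seen.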

Additional observations from a re-analysis of the deposited data

How the results depend on the processing

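Over the 17 alternatives of the 9 tested genes, 122 log2 fold changes kept both direction and call, 16 lost the call, 6 gained it and 9 reversed. Nfkb1 reversed to 0.25 with median-ratio scaling (with or without the replicate block), 0.19 with quantile normalization and 0.29 with the length-GC adjustment (with or without the block). Nfkb2 reversed to 0.039 with median-ratio scaling and 0.14 with the length-GC adjustment, with or without the block in each case. The median over all tested genes was -0.098 with no filter, 0.020 with quantile normalization, -0.0012 with median-ratio scaling (also with the block) and 0.030 with the length-GC adjustment (also with the block). The number of higher members was 0 in limma without a filter and without the trend (1 at an unadjusted p of 0.05 in both), 3 with median-ratio scaling (also with the block) and with quantile normalization, and 4 with the length-GC adjustment, also with the block, and leaving out 1 library gave 0 to 1. The number of lower members was 3 under each of these scalings and adjustments, and 6 to 7 when 1 library was left out. The number changed at least 2-fold was 1 with median-ratio scaling (also with the block) and quantile normalization, and 0 in limma with the length-GC adjustment, with or without the block, where Tnfaip3 was at -0.99. Lower pathway genes numbered 27 with median-ratio scaling (25 with the block), 28 with quantile normalization and 25 with the length-GC adjustment (26 with the block), and higher ones 36 and 34 under that adjustment. Called genes were lower in 48.3% of cases with quantile normalization and 44.8% with the length-GC adjustment. The replicate block alone changed no call of a member and gave 7962 called genes in place of 8265. The log2 difference of Relb/Rela ranged from -0.083 to 0.016 when 1 library was left out. That of Icam1/Rela was 0.12 with a pseudocount of 0.1 and 0.32 with 1, and ranged from -0.72 to 0.76 when 1 library was left out, so it has no stable sign. Where no cause is given, the cause was not tested. Depth is unknown, which limits Icam1 and other genes near 0.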

Other observations

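Over the 6 libraries, the genes whose log2(TPM + 1) was most like that of Nfkbia by Pearson correlation were AC102906.1 (0.991), Mzt1 (0.989) and Metrnl (0.987), and those most like Tnfaip3 were Exosc7 (0.9995), Col20a1 (0.999) and Upf2 (0.998). These are descriptions across libraries that fall into 2 treatment groups. A correlation above 0.95 was reached by 38 genes for Nfkbia and by 2674 genes for Tnfaip3.

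Of the 16 pathway genes that were not tested, 6 were listed at 0 in all libraries and 1 (Fth1) was not matched by name.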
